A study of Mus musculus with 2 samples.

Results

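NANOG is a homeodomain transcription factor of the network that keeps embryonic stem cells pluripotent. A homeodomain contacts a short core with the letters TAAT, and TAATGG is the form described for NANOG itself. NANOG shares much of its genomic occupancy with SOX2, an HMG-box factor that reads CATTGT or CTTTGT, and OCT4, a POU factor that reads the octamer ATGCAAAT. SOX2 and OCT4 often bind side by side at a joint site in which the SOX letters are followed by the octamer. All of these motifs are rich in A and T, so that their letters turn up more often in any AT-rich sequence, and counting them at AT-rich peaks needs a comparison with sequence of the same composition.

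NANOG was mapped by chromatin immunoprecipitation and sequencing (ChIP-seq) in cells of the line E14TG2a.4, which are male embryonic stem cells from 129/Ola mice that the labels place at an embryonic age of 3.5 days. The study holds 1 group of 2 biological replicates of this line, with 1 NANOG antibody and no second condition. The AT-rich peaks are those of the series-level mm9 list whose central window, the midpoint and 50 bp to each side of it, has a G+C share of at most 35%. This rule took 564 of the 13341 peaks, all on assembled chromosomes, and left 12777 other peaks as the comparison. The deposited mm9 lists give no summit, so that the midpoint stands in for the centre. Read depth is unknown, and a possible control experiment that the labels name was not used here. Intervals below are exact Clopper-Pearson intervals at 95%, which cover counting error over peaks only and not the spread between cultures.

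The AT-rich peaks made up 4.23% of the list (95% interval 3.89% to 4.58%). The share was 4.23% in the separate peak list of replicate 1 (934 of 22082 peaks) and 5.38% in that of replicate 2 (356 of 6618, 4.85% to 5.95%). Their centres held 20.8% to 34.7% G+C with a median of 33.7%, while the centres of all peaks had a median of 45.5%. Windows of the same length taken every 2000 bp through mm9 had a median G+C of 41.6%, and 24.3% of the 1279200 windows met the same limit. Close to the peaks the share was also above that of the centres. At 500, 1000 and 2000 bp to either side of the midpoints, 18.7% to 19.7% of windows met the limit. AT-rich centres were thus less common among NANOG peaks than in the sequence around them or in the genome. By chromosome the share ran from 0% on Y, which had 1 peak, and 2.43% on chromosome 19 to 6.09% on chromosome 18.

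**Figure D1:**
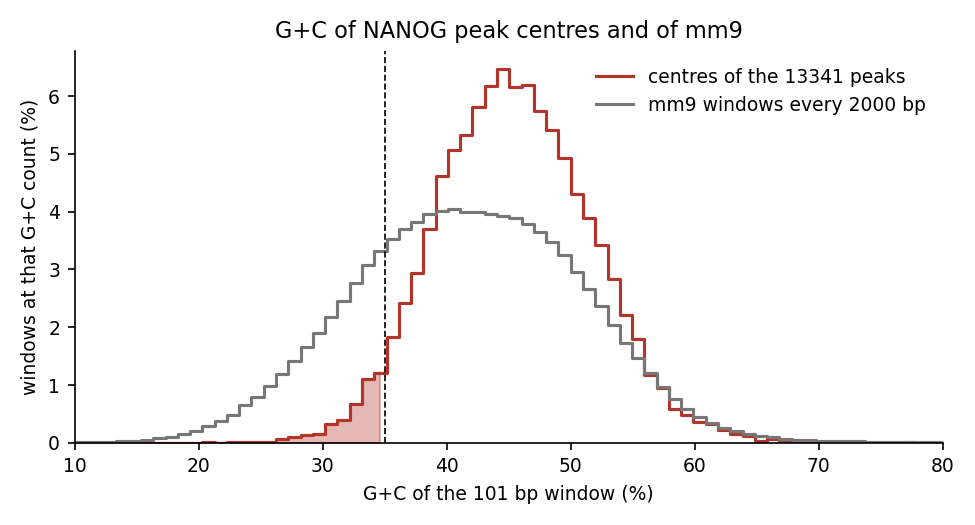
Share of windows (y axis, %) at each G+C content (x axis, %) for the centres of the 13341 peaks and for mm9 windows taken every 2000 bp, with the limit of 35% as a dashed line. The filled tail is the 564 AT-rich peaks, 4.23% of the list against 24.3% of the mm9 windows.

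Centres of 11 AT-rich peaks show what these sites look like. They were taken from the peaks of highest enrichment outside exons, with 1 chromosome and 1 octamer peak left out, and with 1 or 2 for each of 5 motifs and 2 with none of the 5. They are examples and do not rank the motifs. Each is the forward strand of mm9, and capitals mark every match to the named motif on either strand. The word near names the gene with the nearest protein-coding transcription start at any distance, here up to 705 kb for Ythdf3. The joint site was searched as CATTGT or CTTTGT, then any 1 base, then ATGCAAAT, with up to 2 mismatches.
Joint site, near Slc8a1, chr17:82705816-82705916: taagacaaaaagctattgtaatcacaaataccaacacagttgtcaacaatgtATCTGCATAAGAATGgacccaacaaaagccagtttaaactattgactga
Joint site, near Gm9966, chr7:102836879-102836979: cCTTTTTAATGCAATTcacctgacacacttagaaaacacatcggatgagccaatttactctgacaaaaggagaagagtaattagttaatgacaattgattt
Octamer, in Stk30, chr12:112075630-112075730: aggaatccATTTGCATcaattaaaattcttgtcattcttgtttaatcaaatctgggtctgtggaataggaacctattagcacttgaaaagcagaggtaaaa
SOX site, near Coch, chr12:52622678-52622778: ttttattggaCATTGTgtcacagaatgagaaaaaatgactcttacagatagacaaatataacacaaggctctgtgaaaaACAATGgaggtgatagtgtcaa
SOX site, near Tnfrsf19, chr14:61576809-61576909: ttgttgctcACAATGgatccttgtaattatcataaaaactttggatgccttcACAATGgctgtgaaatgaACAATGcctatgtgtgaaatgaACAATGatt
TAATGG, in Accn1, chr11:81093726-81093826: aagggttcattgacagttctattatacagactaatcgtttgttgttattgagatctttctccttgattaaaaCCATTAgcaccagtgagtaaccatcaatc
TAATGG, in Pcdh9, chr14:93482075-93482175: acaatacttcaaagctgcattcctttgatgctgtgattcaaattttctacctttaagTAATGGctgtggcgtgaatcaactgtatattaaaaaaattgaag
TAATTA, near Dtwd1, chr2:126128569-126128669: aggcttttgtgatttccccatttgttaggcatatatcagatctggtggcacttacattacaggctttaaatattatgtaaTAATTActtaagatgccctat
TAATTA, in Tnks, chr8:35996389-35996489: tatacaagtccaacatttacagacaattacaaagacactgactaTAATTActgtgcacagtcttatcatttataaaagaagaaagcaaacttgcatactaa
None of the 5, in Cdc37l1, chr19:29082754-29082854: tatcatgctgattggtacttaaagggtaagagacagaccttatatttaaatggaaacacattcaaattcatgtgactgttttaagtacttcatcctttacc
None of the 5, near Ythdf3, chr3:16788196-16788296: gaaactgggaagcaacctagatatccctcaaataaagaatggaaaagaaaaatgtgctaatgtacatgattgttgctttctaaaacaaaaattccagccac

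The deposited enrichment is a ratio, and what each peak was set against is not given. The 2 sites with none of the 5 motifs had the highest values of the 11. They were picked as the highest of 273 such centres, so this order does not rank the motifs. Other motifs were present in them, an octamer with 1 mismatch in the Cdc37l1 site and TAATGT in the Ythdf3 site. The peak in an intron of Cdc37l1 had an enrichment of 42.9 in the series-level list, 85.71 in replicate 1 and 57.79 in replicate 2, and the peak near Ythdf3 had 42.29, 86.19 and 47.76. Of the SOX examples, the peak near Coch had 39.79, with 79.69 in replicate 1 and 54.04 in replicate 2. The peak near Tnfrsf19 had 37.03, with 75.18 and 34.16 in replicates 1 and 2. The joint-site peaks shown were at 29.53 for Slc8a1 (60.17 and 21.01 in replicates 1 and 2) and 18.46 for Gm9966 (35.13 and 16.72). They lay 657 kb and 270 kb upstream of the starts of these genes. The octamer peak in Stk30 was at 12.59 (25.04 and 10.03). Among peaks with the exact octamer whose sequence is not shown, values reached 41.28 (83.59 and 38.68) at a peak 803 kb upstream of Cdh2. Another, in an intron of Ctnna1, was at 26.75 (55.6 and 25.83) and also holds a joint site. All 11 peaks were in both replicate lists with the higher enrichment in replicate 1. Over the whole list, matched replicate 1 peaks had a median of 14.6 for AT-rich and 14.0 for other peaks. Matched replicate 2 peaks had 9.55 and 9.07, so the higher value in replicate 1 is no trait of these examples.

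Motif content was compared between each AT-rich centre and the nearest window of the same length outside its peak, within 3000 bp of the midpoint, whose G+C count differed by at most 2 bases. Such a flank was found for 563 of the 564 AT-rich peaks, at a median distance of 587 bp, and centres averaged 33.0 G+C bases against 34.0 in flanks. Of 28 motifs, 10 were more frequent at the centres and 2 were less frequent, by the exact McNemar test on pairs with Benjamini-Hochberg adjustment over the 28. The 10 were all of the SOX, octamer, joint and homeodomain families. Some of them contain others, so their calls are not separate findings. A SOX site is CATTGT or CTTTGT, and every exact octamer or ATGCNAAT is also an octamer with up to 1 mismatch.

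SOX sites stood at 33.4% of AT-rich centres (188 of 563, 95% interval 29.5% to 37.5%) and at 15.3% of flanks (86, 12.4% to 18.5%), and the adjusted p was 6.88e-11. In 159 pairs the site was in the centre only and in 57 pairs in the flank only. With flanks allowed inside the peak the difference was smaller, at 9.06 percentage points against 18.1, and still passed (adjusted p = 0.00511, exact McNemar test). Against the flanks outside the peak, both forms were higher. CTTTGT was found at 21.3% of centres against 9.06% of flanks (adjusted p = 1.2e-07, exact McNemar test) and CATTGT at 14.6% against 6.39% (adjusted p = 0.00011, same test). In the mm9 windows with at most 35% G+C, the share with a SOX site was 17.2%, within the interval of the flanks. These windows share the limit only and were not matched to the centres in G+C. The letters TATAAA were at 22.9% of them against 15.6% of flanks.

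The octamer was higher at centres in each of the forms searched, though not under every setting. The exact octamer was at 2.84% of centres (16) and 0.53% of flanks (3), with an adjusted p of 0.0113 by the exact McNemar test, and it was at 1.22% of the AT-rich mm9 windows. With up to 1 mismatch it was at 32.9% of centres against 21.0% of flanks (adjusted p = 4.82e-05, exact McNemar test). ATGCNAAT, with any base in its middle, was at 6.75% against 2.13% (adjusted p = 0.000778, exact McNemar test). The joint SOX-OCT site had the widest ratio of the 10, at 4.80% of centres (27) against 0.53% of flanks (3), and no pair held it in both windows (adjusted p = 5.9e-05, exact McNemar test). None of the 27 matched the joint site exactly, 4 had at most 1 mismatch, and the other 23 had 2. Of mm9 windows with at most 35% G+C, 0.472% held a joint site.

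The homeodomain letters gave mixed results. The bare TAAT core was at 81.9% of centres and 78.2% of flanks, a difference that did not pass the test (adjusted p = 0.226, exact McNemar test). Extended forms did pass it. TAATTG was at 15.5% of centres against 7.64% of flanks (adjusted p = 0.000386, exact McNemar test), TAATTA at 14.2% against 7.64% (adjusted p = 0.00223, same test) and TAATGG at 9.95% against 5.68% (adjusted p = 0.0248, same test). In the AT-rich mm9 windows these 3 were at 9.09%, 8.71% and 5.43%, each within the interval of its flanks. TAATGA was at 11.5% against 7.64% and missed the threshold (adjusted p = 0.0566, exact McNemar test). The other extended forms of the core did not pass, and TAATTT was at 18.8% of centres and 22.7% of flanks. TTTATG, the caudal-type homeodomain letters, was lower at centres, at 6.57% against 14.0% (adjusted p = 0.000181, exact McNemar test). The difference of TTTATG was not called with the separate lists of either replicate (adjusted p = 0.381 from replicate 2's list and 0.404 from replicate 1's, exact McNemar test). In pairs where less than 50% of each window's 24-mers recurred in mm9, TAATTA lost its call (4.33 percentage points, adjusted p = 0.0813, exact McNemar test). TAATGG was called from replicate 2's list but not from replicate 1's (adjusted p = 0.00205 and 0.122, exact McNemar test).

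Motifs of other factors showed no difference at AT-rich centres that passed the test. The ESRRB site TCAAGGTCA, read by an orphan nuclear receptor of the naive network, was at 0.355% of centres (2) and 0.178% of flanks (1). KLF sites, read by zinc-finger factors that favour G and C, were at 0 of 563 centres, with a 95% upper limit of 0.653%, and at 2 flanks. The TEAD site was at 4.09% of centres against 5.33% of flanks, and the TCF/LEF site of the WNT pathway at 3.73% against 1.95% (adjusted p = 0.193, exact McNemar test). The STAT site was at 3 centres and 1 flank. So few windows held an ESRRB, KLF or STAT site that the test could not have passed, whatever the direction. In the other peaks the ESRRB site (184 centres against 32 flanks) and KLF sites (468 against 378) were called higher at centres. TEAD (1020 against 788) and TCF/LEF sites (353 against 194) were also called higher in those peaks, and the STAT site was not. Of 4 control words with the base composition of a motif but shuffled letters, ATATGG was lower at centres (3.20% against 7.46%, adjusted p = 0.00625, exact McNemar test). The other 3 did not pass. Among them AGTACAAT, a shuffled octamer, was at 8 centres against 2 flanks (adjusted p = 0.193, exact McNemar test). In the other peaks AGTACAAT was called higher at centres (54 against 26, adjusted p = 0.00214, exact McNemar test). The remaining controls were called lower there, so control words also differed between centre and flank.

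**Figure D2:**
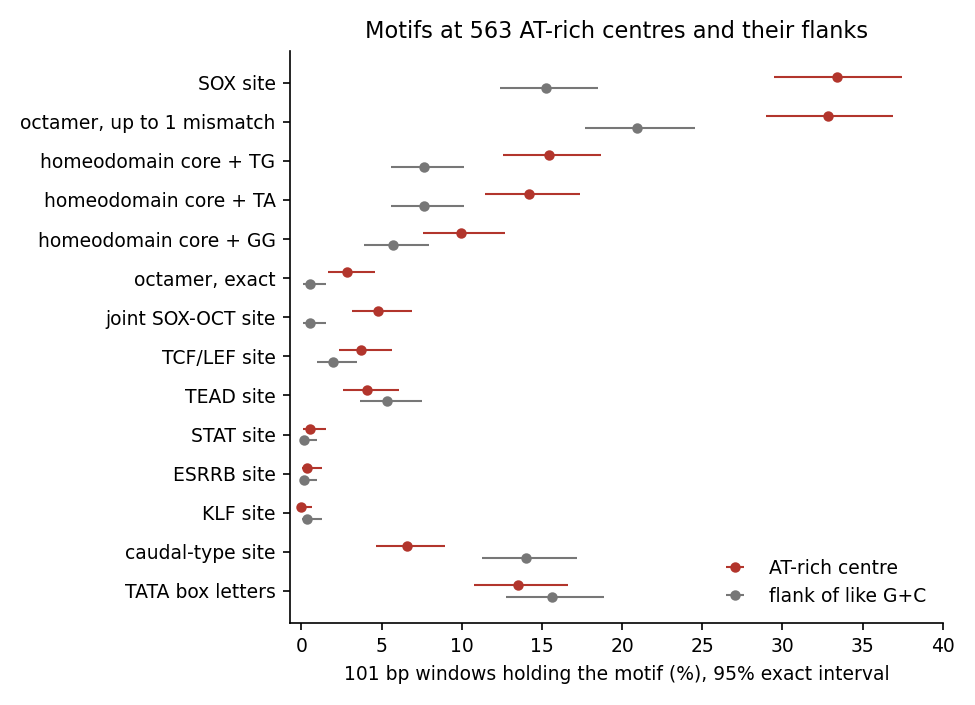
Share of windows that hold each motif (x axis, %) at 563 AT-rich centres and at their flanks of like G+C, with 95% exact intervals; the homeodomain core is TAAT, here with the next 2 bases. The SOX site is at 33.4% of centres against 15.3% of flanks, and the joint SOX-OCT site at 4.80% against 0.53%.

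SOX sites, octamers, TAATTA and the joint site were most frequent beside the midpoint of AT-rich peaks. In bins of 100 bp, a SOX site began in 36.0% and 31.6% of the AT-rich peaks in the 2 bins beside the midpoint, in 24.1% and 21.1% in the next bins out, and in 14.2% to 17.9% from 200 bp outward. For the octamer with up to 1 mismatch the central bins held 26.1% and 23.2%, and for TAATTA 12.1% and 9.75%. The joint site fell to at most 1.95% of peaks outside the central bins, where it was at 4.43% and 3.55%. TAATGG was at 6.74% and 7.09% in the central bins against up to 6.21% elsewhere, and the letters TATAAA were at 10.3% and 10.5% there against up to 12.8% elsewhere. The profile uses all 564 peaks and makes no match for composition. The rule itself selects low G+C at the midpoint. G+C averaged 37.6% and 37.9% in the central bins of AT-rich peaks, against 41.0% to 44.1% in the other bins. How much of the central rise comes from that choice was not tested.

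**Figure D3:**
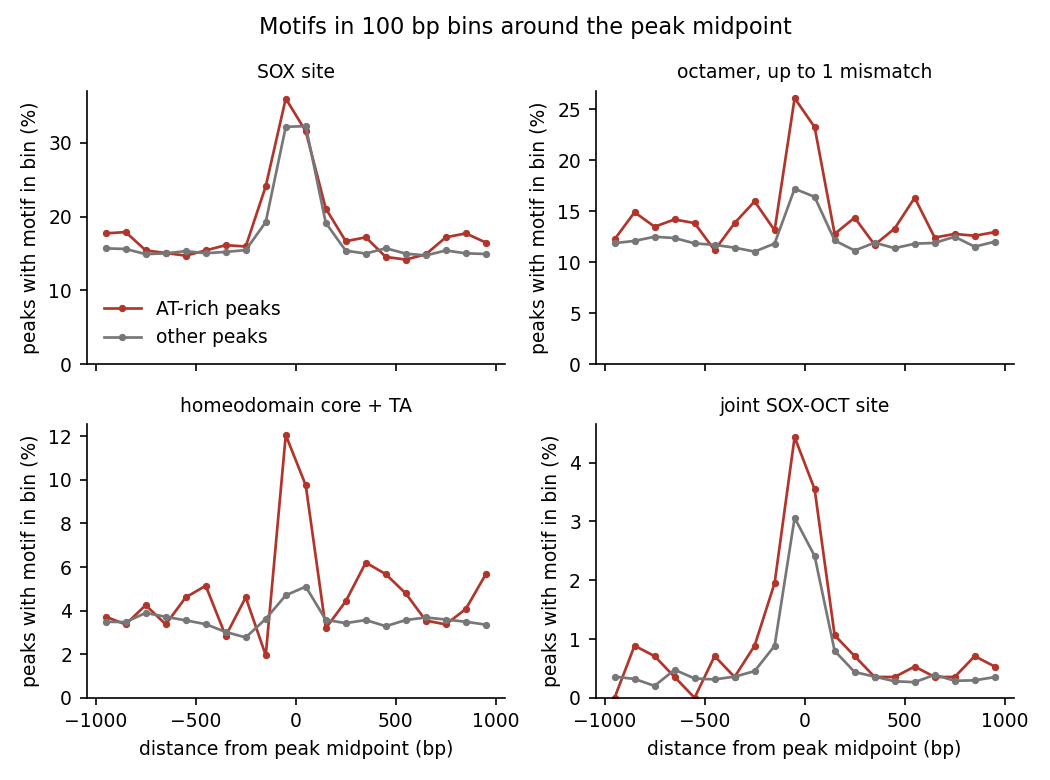
Share of peaks with a motif in each 100 bp bin (y axes, %) by distance from the peak midpoint (x axes, bp), for AT-rich and other peaks, with no match for G+C. In the 2 bins beside the midpoint, SOX sites are in 36.0% and 31.6% of AT-rich peaks, against 32.2% and 32.3% of other peaks.

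The same centre-to-flank comparison in the other peaks, with 12747 pairs, gave a SOX site at 35.5% of centres against 14.6% of flanks, and a joint site at 3.11% against 0.0784%. TAATTA was at 4.61% of those centres against 2.38% of flanks. The test of the difference between the 2 sets, Fisher's exact test on the pairs that held a motif in 1 window only, called 0 of the 28 motifs after adjustment and 0 at an unadjusted p under 0.05. The joint site came closest, with 27 pairs in the centre only and 3 in the flank only in AT-rich peaks, against 397 and 10 in other peaks (Fisher's exact p = 0.0522, adjusted p = 0.636). With a window 2000 bp downstream as the flank whatever its G+C, 11 of the 28 differed. That alternative dropped the match of composition and moved the flank at once, so the part of each cannot be told apart.

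A scan of all hexamers, each counted with its reverse complement, asked which short words set AT-rich centres apart without a list of known motifs. It called 42 hexamers higher at AT-rich centres (2.02% of those tested) and 25 lower (1.2%), by the exact McNemar test with Benjamini-Hochberg adjustment over all hexamers. The SOX words led. ACAAAG, the reverse complement of CTTTGT, was at 120 centres against 51 flanks (adjusted p = 9.8e-06, exact McNemar test), and AACAAT at 119 against 49. TTACAA was at 117 against 48 and AATTAG, which holds a reversed TAAT core, at 102 against 40. Other words called higher were CAATTG (33 against 8), CAATTA (87 against 43), TAATTA (80 against 43) and TGCAAA (84 against 44), a part of the octamer.

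Among words called lower at AT-rich centres, AAAAAT was at 104 centres against 180 flanks, CATATA at 29 against 69 and ATATAT at 19 against 54. All 42 of the higher words and 22 of the 25 lower ones were called in the same direction in the other peaks. CTAGGC and CTCCAA were lower at AT-rich centres (2 against 18 and 10 against 33) and were called higher at the centres of other peaks. AGATGA was lower at AT-rich centres (23 against 54) and was not called in other peaks. A difference between the sets was not tested for single hexamers. With the 209 AT-rich peaks at a deposited q-value of at most 0.001, 0 hexamers were called, and with flanks allowed inside the peak the shares were 0.529% higher and 0.288% lower.

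AT-rich peaks lay mostly outside promoters and exons, as did other peaks. Of the 564, 310 were intergenic (55.0% against 56.2% of other peaks), 224 intronic (39.7% against 37.1%), 22 within 1 kb of a transcription start site (TSS) of a protein-coding gene (3.90% against 4.77%) and 8 exonic (1.42% against 1.88%). No difference in these 4 classes passed Fisher's exact test (adjusted p = 0.573 for each). The median distance to the nearest TSS was 39.1 kb for AT-rich peaks (middle 50% from 11.7 to 116 kb) and 27.7 kb for other peaks (8.34 to 88.7 kb). More than 100 kb from any TSS lay 27.3% of AT-rich peaks (154, 95% interval 23.7% to 31.2%) and 22.8% of other peaks, with an odds ratio of 1.27 that missed the threshold after adjustment over 5 classes (Fisher's exact p = 0.0141, adjusted p = 0.0706). With replicate 1's own list the odds ratio was 1.51 (Fisher's exact test, adjusted p = 1.96e-07), and promoters were then also rarer among AT-rich peaks (odds ratio 0.439, adjusted p = 1.89e-05). With replicate 2's own list neither passed. Beyond 500 kb from a TSS lay 8.16% of AT-rich peaks (46) against 3.60% of other peaks, given here as a description.

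**Figure D4:**
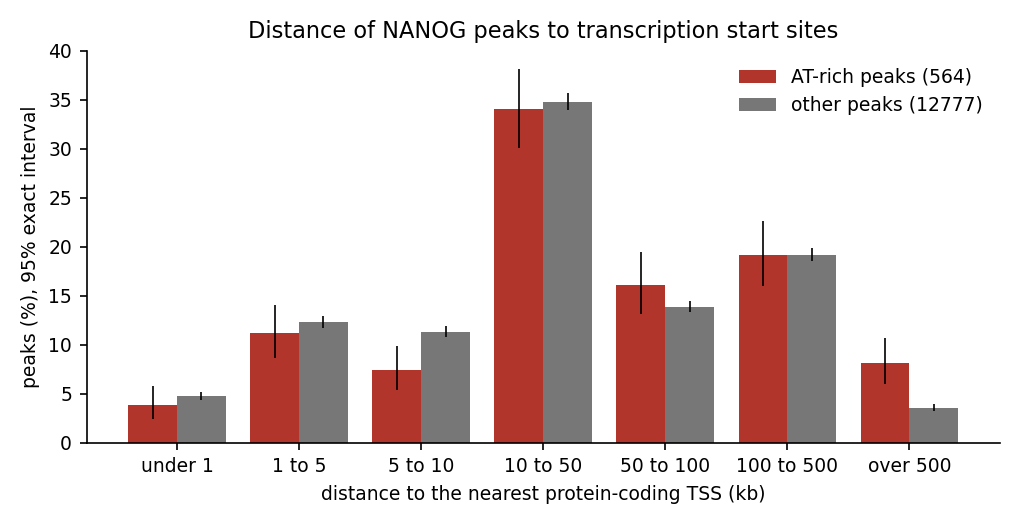
Share of AT-rich and other peaks (y axis, %, with 95% exact intervals) by distance to the nearest protein-coding TSS (x axis, kb). Beyond 500 kb lie 8.16% of AT-rich peaks against 3.60% of other peaks, while 3.90% against 4.77% lie within 1 kb.

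Genes near the strongest AT-rich peaks had varied roles. The nearest TSS was taken for the 20 AT-rich peaks with the highest enrichment among those within 500 kb of one. Passed over were 5 peaks of comparable enrichment farther away, among them that nearest to Ythdf3, at 705 kb, and the last place was a tie at 28.02 with 2 other peaks, near Manba and near Zic2 and Zic5. All 20 were in both replicate lists and all 20 had the higher enrichment in replicate 1. Neither sets them apart. In the highest of 10 classes of enrichment, 81 of 81 AT-rich and 99.9% of other peaks overlapped a replicate 2 peak. Medians of matched peaks were also higher in replicate 1, at 14.6 against 9.55 for AT-rich and 14.0 against 9.07 for other peaks. Of the 20, 8 lay inside a gene, 1 at a promoter and 4 more than 100 kb from the TSS. These counts overlap, since the promoter peak lies inside Itih4 and the peak inside Accn1 is 127 kb from the TSS. Of receptors and secreted signals, the peak at chr19:30579551-30580647 lay 44.1 kb downstream of the start of Dkk1, a secreted inhibitor of WNT signalling. Its enrichment was 40.78, with 82.94 in replicate 1 and 42.03 in replicate 2. The peak at chr14:45613657-45614871 lay 6.39 kb inside Ptger2, a receptor of prostaglandin E2 (36.93, with 78.21 and 37.16 in replicates 1 and 2), and another lay 17.9 kb from the start of Tnfrsf19, a receptor of the TNF family whose sequence is shown above.

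Of adhesion, channel and enzyme genes, Fat1, an atypical cadherin, held a peak at chr8:46064183-46065447, in an intron 29.3 kb from its start (41.45, with 82.94 and 38.21 in replicates 1 and 2). Kcnh8, a voltage-gated potassium channel, held one 3.20 kb from its start (37.76, with 76.76 and 32.0), and Accn1, an acid-sensing ion channel, held one in an intron (33.73, with 68.63 and 29.13). Tnks, the poly-ADP-ribosylating tankyrase (30.63), held a peak in an intron. Plcb4, a phospholipase C (39.94), Ube2d1, a ubiquitin-conjugating enzyme (38.76), and St8sia3, a sialyltransferase (35.41), were the nearest genes to intergenic peaks. Those peaks lay 43.8, 25.2 and 121 kb upstream of the respective starts. Of regulators of chromatin, RNA and transcription, Sfmbt2, a polycomb group protein, lay 35.6 kb from a peak of 1933 bp (34.37, with 69.5 and 33.74 in replicates 1 and 2). Tnrc6c, a partner of Argonaute in microRNA silencing, held a peak (30.71, with 60.17 and 27.22). Nr5a2, an orphan nuclear receptor of the pluripotency network, was the nearest gene to a peak 458 kb upstream of its start (28.02, with 56.59 and 20.06). Itih4, of the inter-alpha-trypsin inhibitor family, had the 1 promoter peak, 0.998 kb from a TSS (35.74, with 72.86 and 21.01). The remaining nearest genes were Gm10136, Samd7, Coch, Tm7sf4, Dtwd1 and Speer2, at enrichments from 32.72 to 42.9.

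Gene lists were described by how many members had an AT-rich peak within 50 kb of a TSS. Among 22225 protein-coding genes, 2.61% had an AT-rich peak and 45.2% had any peak of the list within that distance. Of 29 genes of core and naive pluripotency, 2 had an AT-rich peak, Dppa2 and Dppa4, neighbouring genes that encode DNA-binding proteins of pluripotent cells and that share the 1 peak. It lies 1.44 kb upstream of Dppa2 at chr16:48308737-48309564, with an enrichment of 9.23 (18.54 and 10.98 in replicates 1 and 2). Of 19 genes of formative and primed pluripotency, 3 had one. Zic2 and Zic5, adjacent genes of zinc-finger factors, share a peak at chr14:122832897-122833762 with an enrichment of 28.02 (54.64 and 30.57), and Foxd3, a forkhead repressor, had 2 AT-rich peaks, the higher at 14.6 (28.3 and 13.37). These counts are small, and any peak was near 26 of the 29 and 16 of the 19.

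Of 30 polycomb and chromatin genes, 2 had an AT-rich peak within 50 kb. Both encode subunits of polycomb repressive complex PRC2, and 2 genes are too few to read as a pattern. Aebp2 had one 4.71 kb upstream with 26.7% G+C (10.57, with 20.49 and 7.64 in replicates 1 and 2), and Rbbp4 had one in a stretch annotated as exon of both Rbbp4 and its neighbour Sync (8.05, with 14.96 and 6.69). Uhrf1, which recruits the maintenance DNA methyltransferase, was the 1 of 18 DNA methylation genes (10.07, with 19.84 and 14.81), though Arrdc5 has the nearer TSS. Spry2, a feedback inhibitor of FGF signalling, was the 1 of 20 FGF and ERK genes. Its peak lies 36.9 kb downstream at chr14:106258544-106259771, with 22.8% G+C and a TAATTA site (21.14, with 40.98 and 14.33). Dkk1 was the 1 of 25 WNT genes. Prdm1, a repressor needed for germ cells, held an intronic peak as the 1 of 18 trophectoderm and germline genes (12.92, with 24.39 and 11.94), and Polr2a, the large subunit of RNA polymerase II, was the 1 of 27 housekeeping genes (14.77, with 30.25 and 12.42). No member of the BMP and Nodal, LIF, mesoderm and endoderm, neuroectoderm, Hox, or liver, muscle and blood lists had an AT-rich peak within 50 kb. Against a share of 2.61% over all protein-coding genes, lists of 16 to 39 genes are too small to read 0 as a lack. A peak of any composition was near 16 of 25 BMP and Nodal, 10 of 16 LIF and 10 of 21 mesoderm and endoderm genes. It was near 11 of 17 neuroectoderm, 28 of 39 Hox, and 7 of 28 liver, muscle and blood genes. Of the lists with a gene named in this paragraph, it was near 20 of 30 polycomb and chromatin and 13 of 18 DNA methylation genes. The counts were 18 of 20 for FGF and ERK, 17 of 25 for WNT, 10 of 18 for trophectoderm and germline, and 17 of 27 for housekeeping.

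In the series-level list, no difference in enrichment between the sets passed Fisher's exact test. Above the median of all peaks, 7.38, lay 51.6% of AT-rich peaks (291 of 564, 95% interval 47.4% to 55.8%) and 49.9% of other peaks (49.0% to 50.8%), with an odds ratio of 1.07 (Fisher's exact p = 0.439). The median enrichment was 7.55 for AT-rich peaks (middle 50% from 5.54 to 12.7) and 7.38 for other peaks (5.54 to 11.2). The deposited -log10 p-value had a higher median in AT-rich peaks, 17.5 (8.92 to 41.6) against 13.6 (7.7 to 30.8). The median q-value was 0.0026 against 0.003. Differences in these 2 values were not tested. The matched peaks of replicate 1 had a median of 14.6 for AT-rich and 14.0 for other peaks, and those of replicate 2 had 9.55 for AT-rich and 9.07 for other peaks. AT-rich peaks had a median width of 906 bp against 851 bp, and they were 7.12% of the widest 20% of all peaks, 2.66% of the second narrowest 20% and 4.20% of the narrowest 20%. Within 5 classes of width the odds ratio of enrichment was 0.796 (95% limits 0.654 to 0.969), below 1 where the unstratified ratio was above it. From replicate 1's own list the odds ratio was 1.24 and passed (Fisher's exact p = 0.00165), and from replicate 2's it was 0.868 and did not (Fisher's exact p = 0.210).

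AT-rich peaks overlapped a peak of replicate 2 more often than other peaks did. All 564 overlapped a replicate 1 peak by at least 1 bp, as did 99.6% of other peaks. A replicate 2 peak was overlapped by 325 AT-rich peaks (57.6%, 95% interval 53.4% to 61.7%) and by 5926 other peaks (46.4%, 45.5% to 47.2%), with an odds ratio of 1.57 (Fisher's exact p = 2.08e-07). The share was higher at low G+C, with 60.0% at up to 30% G+C, 57.3% from 30% to 35%, 51.3% from 35% to 40%, 46.7% from 40% to 45%, 44.3% to 46.1% in the classes from 45% to 60%, and 38.4% above 60%. Just inside the limit, at 35 G+C bases, 57.8% of 161 peaks overlapped a replicate 2 peak and the median enrichment was 7.55. Just outside it, at 36 bases, the values were 53.7% of 244 peaks and 7.72. At 34 bases they were 54.1% of 148 peaks and 7.63.

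Within 10 classes of enrichment, with equal numbers of peaks, the odds ratio of replicate 2 overlap was 1.94 (Mantel-Haenszel, 95% limits 1.53 to 2.46). In class 4 of 10, at an enrichment of 5.87 to 6.54, 18 of 43 AT-rich peaks overlapped (41.9%) against 19.6% of other peaks, and in the top class 81 of 81 did, against 99.9%. In class 1 the order was the other way, with 3.51% of AT-rich and 5.09% of other peaks. Within 5 classes of width the odds ratio was 1.28 (95% limits 1.05 to 1.56), and within classes of enrichment and width together it was 1.75 (1.37 to 2.23). By width the order was not the same throughout either. In the middle class, 62.7% of AT-rich peaks overlapped against 45.1% of other peaks, and in the widest class 76.8% against 79.2%. With peaks at a q-value of at most 0.001 the difference did not pass (odds ratio 1.47, Fisher's exact p = 0.320). The part of width in the pooled difference was not tested further.

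**Figure D5:**
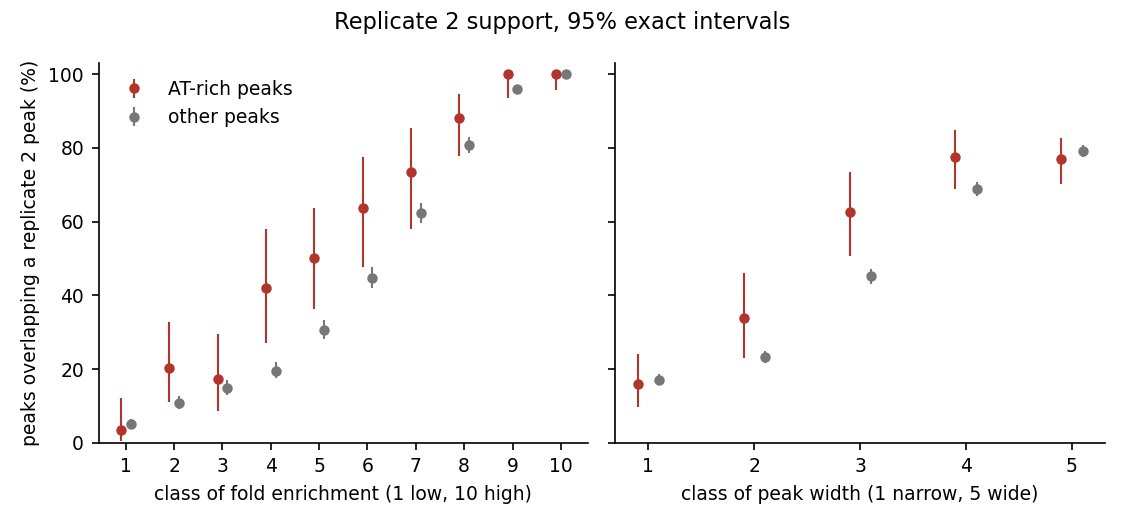
Share of AT-rich and other peaks that overlap a replicate 2 peak (y axis, %, with 95% exact intervals) in 10 classes of fold enrichment and 5 classes of peak width (x axes). In class 4 of enrichment, the widest gap, 41.9% of AT-rich peaks overlap against 19.6% of other peaks, and in class 1 the values are 3.51% against 5.09%. In the widest class the values are 76.8% against 79.2%.

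Among the AT-rich peaks, motif content was set against enrichment and replicate support. None of the motifs divided the peaks by enrichment above or below their own median (Fisher's exact test, adjusted p = 1.0, 0 at an unadjusted p under 0.05) or by overlap with replicate 2 (adjusted p = 1.0, likewise 0). At least 1 of the exact octamer, the joint site, the SOX site, TAATGG and TAATTA was in 291 of the 564 centres (51.6%), against 44.5% of other centres, with no match for composition. The 273 AT-rich centres with none of the 5 had a median enrichment of 7.55 and a replicate 2 overlap of 57.5%, and the 291 with at least 1 had 7.55 and 57.7%.

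Repeated sequence was as frequent at AT-rich as at other peaks within counting error. At least 50% of the 24-mers of the centre occurred more than once in mm9 for 12.8% of AT-rich peaks and 13.0% of other peaks (Fisher's exact p = 0.949). Within pairs, 12.8% of AT-rich centres and 14.6% of their flanks were multicopy by this measure (exact McNemar p = 0.353). Another peak of the list lay within 10 kb of 19.9% of AT-rich peaks and of 22.3% of other peaks (Fisher's exact p = 0.178).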

How the data were processed

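ChIP-seq peaks of NANOG in 2 replicates of 1 cell line were used as deposited, in 3 mm9 lists (replicate 1, replicate 2 and series level). Each deposited peak carries an enrichment ratio (fold), a -log10 p-value and an untransformed q-value from the authors. What the ratio is relative to is not stated. The aligner, the peak caller, the way replicates were combined and any control are not given in the sources used here. In the deposited lists, 53.2% of replicate 1 and 29.3% of replicate 2 peaks have a q-value above 0.05, and the highest at series level is 0.0215. The mm10 lists were not used, since mm10 sequence was not used here.

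Sequence and annotation were mm9 (GENCODE vM1, every transcript start of a protein-coding gene as a TSS). Both strands were searched for 28 motifs and every hexamer. All tests were two-sided, with Benjamini-Hochberg adjustment over the family named and a threshold of 0.05. They treat each peak as 1 draw from 1 list and do not measure the spread between cultures. Neighbouring motifs share letters, so their tests are not independent. Genes were named by nearest TSS of the 20 highest AT-rich peaks and by up to 3 members per list with an AT-rich peak within 50 kb. Of 330 list symbols, 323 were in the annotation. The members, motifs, lists and tests were chosen with earlier results of these data known. Tests were run with SciPy 1.17.1 and statsmodels 0.14.6, under Python 3.11.15. Coordinates are 1-based. 1 further octamer sequence is not reported here.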

Additional observations from a re-analysis of the deposited data

How the results depend on the processing

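The mm9 sequence carries no soft-masking, so the planned soft-masked share and the exclusion of soft-masked windows were not run. The share of 24-mers that recur in mm9 and the classes of width for replicate overlap were added after seeing the data. No paired analysis of sample groups was possible because the study has 1 group. Odds ratios are of AT-rich over other peaks, and causes were not tested unless the construction of the alternative shows them.

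A stricter limit of 30% G+C left 70 peaks, 0.525% of the list, and called 0 motifs and 0 hexamers in either direction. TAATGG then turned to -7.25 percentage points (centre minus flank), and the odds ratios were 1.22 for promoters, 0.692 for over 100 kb from a TSS and 0.842 for enrichment, none called. A limit of 40% took 19.7% of the list. It called 5 motifs lower, 11.3% of hexamers higher and 12.7% lower, 1 motif that differed from other peaks and 3 whose carriers differed in enrichment. Its odds ratios were 0.701 for promoters, 1.00 for intergenic sites, 1.37 for over 100 kb and 1.20 for enrichment, of which promoters, over 100 kb and enrichment were called. A window of 100 bp to each side took 1.21% of peaks and called 4 motifs higher, 1 lower and 0 hexamers. Peaks with a q-value of at most 0.001 were AT-rich in 5.26%, and gave 2 motifs higher, 1 lower and 0 hexamers. Their odds ratios were 1.17 for exons and 1.47 for replicate 2 overlap, not called.

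From the list of 1 replicate alone (replicate 2's, then replicate 1's), the share was 5.38% and 4.23%, hexamers higher were 2.21% and 3.22% of those tested, and odds ratios were 0.661 and 0.439 for promoters, 1.19 and 0.993 for introns, 0.949 and 1.16 for intergenic sites, 1.35 and 1.51 for over 100 kb, and 0.868 and 1.24 for enrichment. Promoters, over 100 kb and enrichment were called from replicate 1's list. Replicate 2 overlap was not recomputed there. Flanks allowed inside the peak gave 1 motif lower, 0.529% of hexamers higher and 0.288% lower. Unmatched windows 2000 bp downstream gave 0 motifs lower, 7.84% of hexamers higher, 9.66% lower and 11 motifs that differed from other peaks. Single-copy pairs, with less than 50% of the 24-mers of each window recurring in mm9, gave 1 motif lower, 1.11% of hexamers higher and 0.673% lower. With 1 TSS per gene the odds ratio over 100 kb was 1.27, now called (Fisher's exact test, adjusted p = 0.0443). Within classes of width the odds ratio of enrichment was 0.796.

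SOX sites stayed higher at AT-rich centres under 9 of 10 alternatives, the exception being the limit of 30% G+C, and the difference was 9.06 percentage points against 18.1 with flanks allowed inside the peak. Over 10 named motifs and 10 alternatives each, 67 of 100 values kept their call, 32 lost it and 1 turned. The odds ratio of replicate 2 overlap stayed above 1 under all 7 alternatives run, from 1.22 with an overlap of 50% of the peak to 1.94, and lost its call at the stricter q-value only. Read depth is unknown.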
